A study of Mus musculus with 10 samples.

Results

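The oxidative phosphorylation genes were followed in mammary epithelial cells (MECs) and in mammary gland macrophages of mice with and without a myeloid deletion of Cebpb. Members were taken by symbol alone, as every protein-coding gene named for a subunit of respiratory complexes I to IV or of ATP synthase. This gave 107 of the 21974 protein-coding genes, and 55487 genes of all kinds, that the count tables list. Of the 107 genes, 13 lie on the mitochondrial genome and 94 in the nucleus. By complex, the nuclear members comprised 36 genes of complex I, 4 of complex II, 8 of complex III, 20 of complex IV and 18 of ATP synthase (complex V). A further 8 genes with complex I symbols encode assembly factors. The genes of complexes IV and V include Cox7a2l, a factor that joins complexes, Atp5s, an accessory factor, and both entries named Atp5o. The mitochondrial members comprised 7 subunits of complex I, 1 of complex III, 3 of complex IV and 2 of complex V. Ndufa4 and Ndufa4l2 were counted with complex IV, where the Ndufa4 protein resides.

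Oxidative phosphorylation passes electrons from NADH through complex I and from succinate through complex II to ubiquinone, then through complex III and cytochrome c to complex IV, where oxygen is reduced. Complexes I, III and IV pump protons across the inner mitochondrial membrane, and complex V uses the returning protons to make ATP. All complexes but complex II combine subunits made inside mitochondria with subunits imported from the cytosol, so that the system draws on both genomes.

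The libraries came from 10-wk-old female mice in diestrus on a BALB/c background. All mice carried floxed Cebpb alleles (Cebpb fl/fl). WT mice lacked the Csf1r-iCre transgene and CebpbΔM mice carried it, so that Cre was driven by the promoter of Csf1r, the receptor for colony-stimulating factor 1, which is used by macrophages and other myeloid cells. The deletion was thus directed at myeloid cells and not at the MECs, although the sample labels name both cell types of these mice a knockdown of C/EBPb. MECs were purified by removing cells of other lineages (2 WT libraries, numbered 1 and 3, and 2 CebpbΔM libraries, also 1 and 3), and macrophages by positive selection for F4/80 (2 WT libraries, 4 and 5, and 4 CebpbΔM libraries, 4 to 7). The sources do not say whether each library came from 1 mouse, so p-values measure the spread between libraries. The cell types were isolated and numbered as separate experiments, and cell type and experiment cannot be told apart.

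Libraries held between 25310926 and 27008166 counts in MECs and between 16935000 and 20174722 in macrophages. The targeted gene was low throughout. Cebpb had 25 and 28 counts in the WT MEC libraries and 69 and 42 in the CebpbΔM MEC libraries, and 13 and 15 counts in the WT macrophage libraries against 16, 13, 5 and 4 in CebpbΔM libraries 4, 5, 6 and 7. The macrophage genotypes thus overlapped. Scaled to a library total of 1e+06 counts, WT libraries stood at 0.652 and 0.714. CebpbΔM library 4 lay above them at 0.815, library 5 just below at 0.633, and libraries 6 and 7 lower at 0.271 and 0.240. These groups are therefore named by their labels in what follows. Summed levels of 16 macrophage markers, Csf1r, Cd68 and Adgre1 among them, were 232 to 410 CPM (counts scaled to a library total of 1e+06) in MECs and 9049 to 17436 CPM in macrophages. Summed levels of 16 epithelial markers were 32644 to 40404 CPM in MECs and still 5796 to 10438 CPM in macrophage libraries. Endothelial markers summed to 140 to 188 CPM in MECs and 1699 to 3112 CPM in macrophages, and fibroblast markers to 5404 to 6544 CPM and 3311 to 7697 CPM. In bulk libraries, fewer cells of a type and less RNA per cell cannot be told apart.

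Transcripts of all but 3 members were detected. Cox7b2, Cox8c and a second annotated gene named Atp5o had no count in any library, for which 3 counts, the level that a count of 0 allows, correspond to 0.117 to 0.122 CPM in MECs and 0.143 to 0.180 CPM in macrophages. A filter of at least 300 nt of gene length and over 1 CPM in at least 2 libraries left 99 members in MECs, 98 in macrophages and 99 in the joint fit. Besides the 3 genes without counts, it removed mt-Atp8 and mt-Nd4l for length, mt-Nd3, Cox6a2 and Cox8b for level, and Cox7a1 for level in macrophages. Among the genes kept, the deposited counting gave levels across a wide range. Per kb of mRNA and averaged over the 10 libraries, the highest nuclear member was Atp5b, the catalytic beta subunit of ATP synthase, at 855 CPM per kb, followed by Cox4i1, the common form of complex IV subunit 4, at 584 CPM per kb. The highest in the other complexes were Uqcrc1, a core protein of complex III, at 294 CPM per kb, Ndufa7, an accessory subunit of complex I, at 210 CPM per kb, Sdhb, the iron-sulfur subunit of complex II, at 148 CPM per kb, and the assembly factor gene Ndufaf8 at 16.8 CPM per kb.

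The 13 mitochondrial members together took about as large a share of counts in CebpbΔM macrophages as in MECs, with a wide spread, and a smaller share in WT macrophages than in WT MECs. They took 1.28% and 1.29% of counts in the WT MEC libraries, 1.07% and 1.65% in CebpbΔM MECs, 1.20% and 0.99% in WT macrophages, and 1.57%, 1.05%, 1.79% and 1.38% in CebpbΔM macrophages 4 to 7. The WT groups did not overlap, whereas the genotypes overlapped within each cell type, and CebpbΔM macrophage library 6 was the highest of all 10. The group means were 1.29% ± 0.0122 (SD, n = 2), 1.36% ± 0.408 (n = 2), 1.10% ± 0.152 (n = 2) and 1.45% ± 0.315 (n = 4) in the same order. For the highest library the 95% Wilson interval of the share, which covers counting error only, was 1.78% to 1.80%.

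The nuclear members did separate the cell types. The 94 genes together took 1.23% and 1.20% of counts in WT MECs and 1.32% and 1.28% in CebpbΔM MECs, against 0.957% and 0.734% in WT macrophages and 0.819%, 0.790%, 0.673% and 0.773% in CebpbΔM macrophages. Every MEC library was above every macrophage library. The ratio of mitochondrial to nuclear counts, which does not depend on how libraries are scaled, was 1.04 and 1.08 in WT MECs, 0.814 and 1.29 in CebpbΔM MECs, 1.26 and 1.35 in WT macrophages and 1.91, 1.32, 2.66 and 1.79 in CebpbΔM macrophages. The lowest CebpbΔM macrophage ratio lay between those of the WT macrophages, and CebpbΔM MEC library 3 lay among the macrophage values. With 2 libraries a group, an exact two-sided permutation test cannot give a p below 0.333, and 0.0667 for 2 against 4 libraries.

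**Figure D1:**
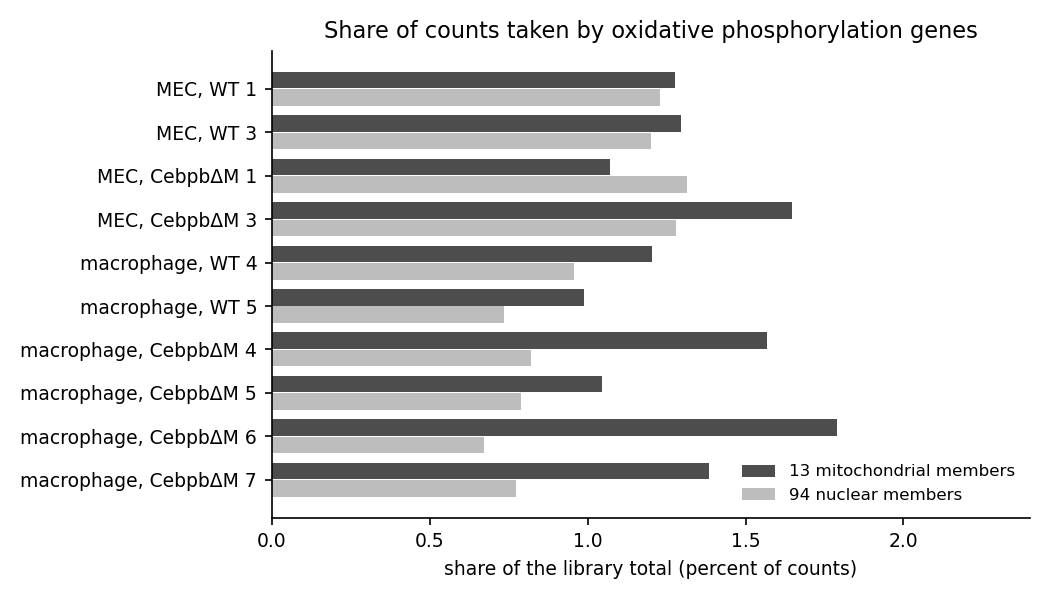
Share of each library's counts (x axis, percent of the library total) taken by the 13 mitochondrial and the 94 nuclear oxidative phosphorylation genes, 1 pair of bars a library. The nuclear bars lie between 1.20% and 1.32% in MECs and between 0.673% and 0.957% in macrophages, whereas the mitochondrial bars run from 1.07% to 1.65% in MECs and from 0.99% to 1.79% in macrophages.

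Within the mitochondrial genome, levels averaged over libraries differed widely. mt-Cytb, the only mitochondrial subunit of complex III, averaged 3497 CPM per kb over all libraries, mt-Nd1 of complex I 3490 CPM per kb and mt-Co1, the catalytic subunit of complex IV, 2013 CPM per kb. The other complex I genes outside the middle of the genome were lower, mt-Nd4 at 825, mt-Nd5 at 550, mt-Nd6 at 362 and mt-Nd2 at 326 CPM per kb. The 6 adjacent genes from mt-Co2 to mt-Nd4l (MT, 7013 to 10173, plus strand, GRCm38), which encode complex IV subunits 2 and 3, both mitochondrial ATP synthase subunits and 2 complex I subunits, averaged less. mt-Atp6 averaged 191, mt-Co3 57.2, mt-Atp8 42.9, mt-Co2 39.5, mt-Nd4l 20.3 and mt-Nd3 2.43 CPM per kb.

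**Figure D2:**
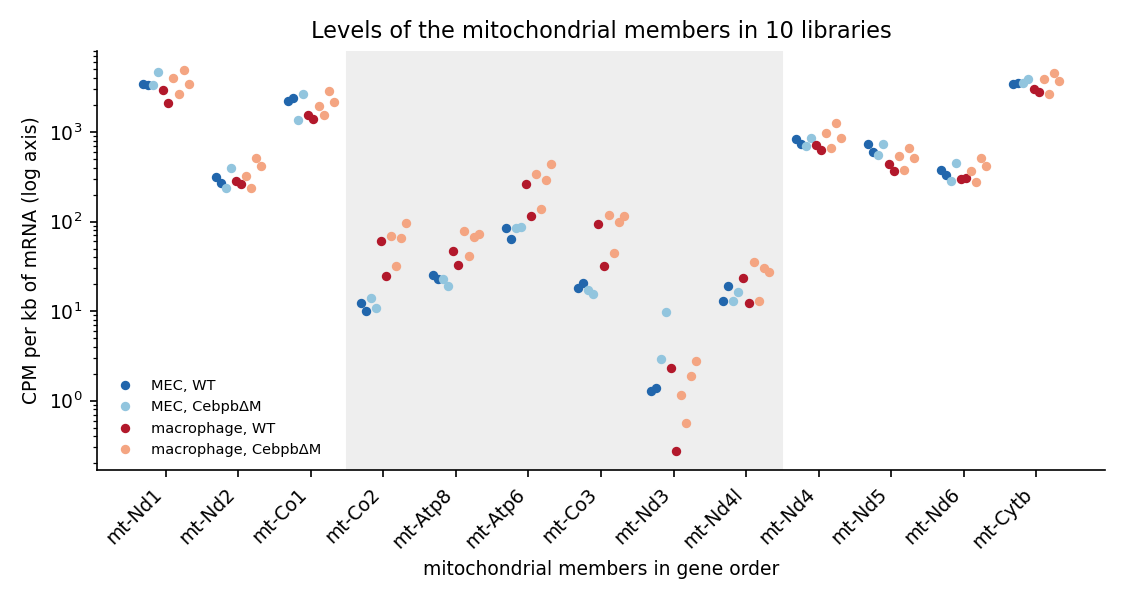
Levels of the 13 mitochondrial members in gene order (y axis, CPM per kb of mRNA, log axis; 1 point a library, coloured by group), with the 6 genes from mt-Co2 to mt-Nd4l shaded. The shaded genes average 2.43 to 191 CPM per kb and the other 7 average 326 to 3497 CPM per kb, although mt-Atp6 reaches the level of mt-Nd2 in some CebpbΔM macrophage libraries, and mt-Co2, mt-Atp6 and mt-Co3 are higher in every macrophage library than in any MEC library.

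These 6 genes together held 0.657% and 0.569% of the mitochondrial member counts in WT MECs and 0.773% and 0.556% in CebpbΔM MECs. In macrophages they held 2.81% and 1.38% in WT and 2.72%, 1.604%, 1.86% and 3.38% in CebpbΔM libraries 4 to 7. The stretch and parts of its neighbours mt-Co1 and mt-Nd4 have a copy in the nuclear genome on chromosome 1 (24611535 to 24616197, minus strand), annotated as 7 unprocessed pseudogenes. In the GENCODE M21 transcripts the copies are identical to mt-Co2 over 681 nt (Gm28661), to mt-Atp6 over 678 nt (Gm10925), to mt-Co3 over 783 nt (Gm28437) and to mt-Nd4l over 294 nt (Gm10222). Gm28438 matches mt-Nd3 over 345 nt with 1 difference, T3C, counted from the first base of the gene.

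The start of mt-Nd3 (MT, 9459 to 9519, plus strand) and of its copy (chromosome 1, 24613059 to 24613119, minus strand) shows how little separates a read of this stretch from its copy. The copy of mt-Co1 with the longest match, Gm13340 on chromosome 2, is less close, at 97.6% over 1545 nt with 37 mismatches. A shorter copy, Gm29216, is closer (99.8% over 483 nt) and is not shown. The window of Gm13340 was picked as the stretch of this length with the most differences, so other stretches differ less or equally. This window covers positions 459 to 519 of both (MT, 5786 to 5846, plus strand, and chromosome 2, 22589129 to 22589189, minus strand, GRCm38). Capitals mark the bases that differ within a pair, 1 in the first pair and 4 in the second.
mt-Nd3: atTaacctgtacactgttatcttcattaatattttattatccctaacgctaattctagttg
Gm28438: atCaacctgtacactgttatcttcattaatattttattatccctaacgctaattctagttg
mt-Co1: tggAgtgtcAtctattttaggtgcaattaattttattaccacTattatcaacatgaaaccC
Gm13340: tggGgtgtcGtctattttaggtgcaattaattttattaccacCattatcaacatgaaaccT

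The authors counted pairs with a mapping quality of at least 10, a value that a pair with several equal places in the genome does not usually reach. The 7 pseudogenes on chromosome 1 themselves held 1975 to 3679 counts in MEC libraries and 3606 to 6792 in macrophage libraries. The 6 mitochondrial genes, a shorter region since the 7 include the parts of mt-Co1 and mt-Nd4, held 1915 to 2318 and 2760 to 7919. Outside the stretch, the closest copies were partial or less alike. Gm28439 matches 876 of the 1378 nt of mt-Nd4 at 100% and Gm29216 matches 483 nt of mt-Co1 at 99.8%, and the best matches of mt-Nd2, mt-Nd5, mt-Nd6, mt-Cytb and mt-Nd1 reached 96.7%, 95.2%, 93.6%, 92.9% and 83.6%. The part of these copies in the counts was not tested, so levels of the genes from mt-Co2 to mt-Nd4l are uncertain and medians over mitochondrial members are also given without them.

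The first comparison asked how the genes differ between macrophages and MECs of WT mice. Nuclear genes of complexes I, III, IV and V were lower in WT macrophages, the mitochondrial genes outside the uncertain stretch were not called either way by the quasi-likelihood test, and all 4 genes of complex II, the only complex made wholly from nuclear genes and shared with the citrate cycle, had log2 fold changes between -0.28 and 0.10 with none called. In the fit over all libraries (edgeR's quasi-likelihood test, adjusted p of 0.05 or less over 18323 genes), 56 of 99 members tested were lower in macrophages, where 10.7% of all genes were, and 4 were higher, where 14.8% of all genes were. The median log2 fold change, macrophage over MEC, was -0.90 for the 89 nuclear members, -0.23 for the 10 mitochondrial members and 0.06 for all genes tested. The groups did not overlap for 81 members, where 65.1% of all genes did not. By complex, 21 of 36 nuclear members of complex I were lower (median -0.83), 6 of 8 of complex III (median -1.06), 14 of 16 of complex IV (median -1.43) and 14 of 17 of complex V (median -1.43), but 1 of 8 assembly factor genes of complex I (median -0.25).

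Leaving out 1 library mattered for the count. Without WT macrophage library 5, 38 members were called, and without WT MEC library 3 or 1, 40 and 42, whereas the nuclear median stayed between -1.12 and -0.73 without any 1 library.

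**Figure D3:**
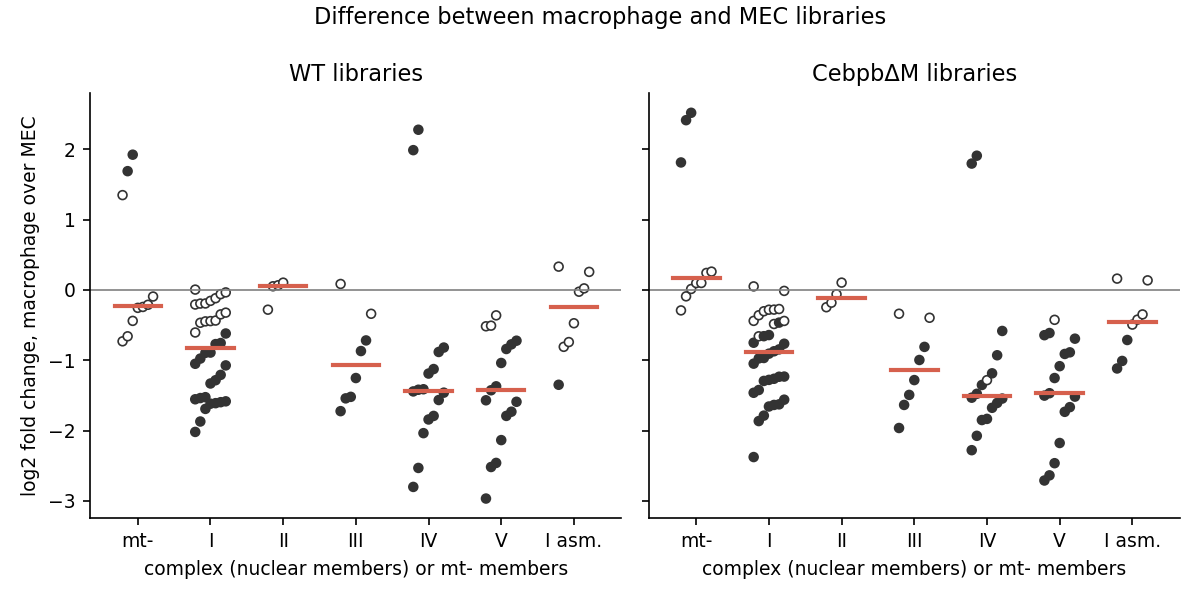
Log2 fold change of each member tested, macrophage over MEC (y axis), by complex, for WT libraries (left) and CebpbΔM libraries (right); filled points have an adjusted p of 0.05 or less and bars are medians. Points of complexes III, IV and V lie mostly below 0, those of complex II near 0, and the 3 high mitochondrial points are mt-Co2, mt-Co3 and mt-Atp6.

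The 5 nuclear members with the smallest p among those lower in macrophages were accessory or small subunits. Atp5o, which encodes the OSCP subunit of the ATP synthase stalk (chromosome 16, 91925214 to 91931687, minus strand), stood at 79.1 and 80.2 CPM in WT MECs and 86.6 and 82.2 CPM in CebpbΔM MECs. In macrophages it stood at 17.4 and 11.6 CPM in WT and at 15.2, 12.6, 12.7 and 13.8 CPM in CebpbΔM. The 4 MEC libraries were close to each other and all several times above the 6 macrophage libraries, with a WT log2 fold change of -2.46 (SE 0.23, adjusted p = 2.93e-05, edgeR). Its annotation overlaps those of the second Atp5o entry and of 2 genes on the other strand.

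Cox7a2, the common form of a small complex IV subunit, had 119 and 112 CPM in WT MECs, 133 and 133 CPM in CebpbΔM MECs, 33.9 and 22.5 CPM in WT macrophages and 24.8, 26.4, 26.6 and 31.7 CPM in CebpbΔM macrophages. Its WT log2 fold change was -2.04 (SE 0.23, adjusted p = 9.31e-05, edgeR). Atp5e, the epsilon subunit of ATP synthase, had 100.4 and 77.1 CPM in WT MECs, 116 and 91.5 CPM in CebpbΔM MECs, 19.6 and 11.4 CPM in WT macrophages and 17.2, 16.8, 16.8 and 24.5 CPM in CebpbΔM macrophages (log2 fold change -2.52, SE 0.31, adjusted p = 0.000197). For both genes, the highest macrophage library was far below the lowest MEC library.

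Atp5g2, 1 of several genes for the c subunit that forms the rotating ring of ATP synthase, had 109 and 94.7 CPM in WT MECs, 95.3 and 90.2 CPM in CebpbΔM MECs, 36.0 and 25.5 CPM in WT macrophages and 31.6, 34.2, 31.5 and 33.5 CPM in CebpbΔM macrophages (log2 fold change -1.73, SE 0.21, adjusted p = 0.000156). Uqcrh, the hinge protein of complex III, had 141 and 150.02 CPM in WT MECs, 152 and 152 CPM in CebpbΔM MECs, 49.2 and 39.0 CPM in WT macrophages and 41.2, 51.4, 44.9 and 58.4 CPM in CebpbΔM macrophages (log2 fold change -1.72, SE 0.21, adjusted p = 0.000198, edgeR). Their groups too were apart by cell type and overlapped by genotype within macrophages.

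Members with high levels per kb included Atp5b and Cox4i1, both called lower, and Uqcrc1, which was not called. Atp5b had 2358 and 2082 CPM in WT MECs and 1460 and 1231 CPM in WT macrophages (log2 fold change -0.72, SE 0.19, adjusted p = 0.0185, edgeR). Cox4i1 had 583 and 634 CPM in WT MECs against 379 and 281 CPM in WT macrophages (log2 fold change -0.88, SE 0.19, adjusted p = 0.00594). The Atp5b call was lost without WT MEC library 1 or 3 or WT macrophage library 5 (adjusted p = 0.107, 0.0501 and 0.153), and the Cox4i1 call without WT macrophage library 5 (0.0694). Uqcrc1, by contrast, had 555 and 467 CPM in WT MECs and 547 and 536 CPM in WT macrophages, a log2 fold change of 0.08 with a 95% interval of -0.36 to 0.53. Sdha, the flavoprotein subunit of complex II, likewise had 360 and 372 CPM in WT MECs and 368 and 398 CPM in WT macrophages, a log2 fold change of 0.07 with an interval of -0.31 to 0.44.

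The 2 members of complex III that were not called, Uqcrc1 and Uqcrc2, are its core proteins. In complex V, the 3 not called were Atp5a1, the alpha subunit, Atp5c1, the gamma subunit, and Atp5s, an accessory factor (log2 fold changes -0.36, -0.52 and -0.51). The lowest fold change of all members was that of Atp5k, a small membrane subunit of ATP synthase, at -2.97 (SE 0.50). These genes were named here after their values were seen.

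Promoters are shown for 2 members called lower in WT macrophages, Atp5g2 and Uqcrh, and for 1 that was not called, Uqcrc1, for the sequence elements that nuclear respiratory genes are known to carry. Of the 94 nuclear members, 77 had a RefSeq window (GRCm38.p6) from 250 bases before to 50 after the start of a gene. NRF1 and factors of the ETS family, such as GABP, are known activators of respiratory genes. The 77 include both entries named Atp5o, and a member with more than 1 window was counted once. The NRF1 core CGCATGCGC, on either strand, stood in 10 of the 77 members (12.99%) and in 1.95% of 27025 genes with a window. The ETS core CCGGAAG stood in 18 (23.4%, against 9.93%), the ERR site TCAAGGTCA in 2 (2.60%, against 0.466%), and the C/EBP letters TTGCNNAA in 9 (11.7%, against 12.2%). Atp5g2 and Uqcrc1 both held the NRF1 core, read on both strands in overlapping letters, and Uqcrh held an ETS core and the C/EBP letters. The windows lie on chromosome 15, 102670998 to 102671297, minus strand (Atp5g2), chromosome 9, 108936398 to 108936697, plus strand (Uqcrc1), and chromosome 4, 116075021 to 116075320, minus strand (Uqcrh), and are written along the gene with matches in capitals. Among the other members with the smallest p, the windows of Atp5o and Cox7a2, not shown, held none of these elements. That of Atp5e, not shown either, held an ETS core. A match describes letters and no binding was measured.
Atp5g2: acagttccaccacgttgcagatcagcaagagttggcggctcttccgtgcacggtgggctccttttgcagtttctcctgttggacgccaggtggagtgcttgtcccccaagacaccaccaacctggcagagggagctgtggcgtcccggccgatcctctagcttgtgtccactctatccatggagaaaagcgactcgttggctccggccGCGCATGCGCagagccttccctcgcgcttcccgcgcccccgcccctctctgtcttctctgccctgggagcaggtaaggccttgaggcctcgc
Uqcrc1: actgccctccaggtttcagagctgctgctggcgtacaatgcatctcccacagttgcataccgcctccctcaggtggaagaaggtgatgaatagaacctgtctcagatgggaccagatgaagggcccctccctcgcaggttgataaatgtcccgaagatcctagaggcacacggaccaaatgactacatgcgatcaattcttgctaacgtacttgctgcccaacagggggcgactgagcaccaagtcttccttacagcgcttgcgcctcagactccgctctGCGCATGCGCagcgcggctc
Uqcrh: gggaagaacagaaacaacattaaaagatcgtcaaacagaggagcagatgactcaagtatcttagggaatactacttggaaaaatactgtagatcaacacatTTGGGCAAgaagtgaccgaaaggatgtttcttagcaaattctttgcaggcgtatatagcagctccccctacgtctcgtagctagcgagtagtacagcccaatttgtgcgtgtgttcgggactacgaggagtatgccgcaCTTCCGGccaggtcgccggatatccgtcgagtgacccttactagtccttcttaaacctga

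The 4 members called higher in WT macrophages were 2 isoforms of complex IV genes and 2 mitochondrial genes of the uncertain stretch. Ndufa4l2, a paralog of Ndufa4 known to be induced by hypoxia, had 4.17 and 2.56 CPM in WT MECs and 17.1 and 15.5 CPM in WT macrophages (log2 fold change 2.28, SE 0.55, adjusted p = 0.0111). Cox4i2, the alternative form of subunit 4 known from lung and smooth muscle, had 1.09 and 1.10 CPM against 4.56 and 4.14 CPM (log2 fold change 1.99, SE 0.58, adjusted p = 0.0288, edgeR). In CebpbΔM macrophages 4 to 7, Ndufa4l2 stood at 6.57, 16.9, 26.9 and 13.9 CPM and Cox4i2 at 3.01, 6.67, 7.71 and 2.70 CPM. Library 6 was thus the highest for both genes. Summed endothelial markers in these libraries were 1699, 2756, 3112 and 2523 CPM, and adipocyte markers 720, 1032, 1448 and 868 CPM. Both sums were also highest in library 6, as was that of skeletal muscle markers (96.6 CPM), whereas that of fibroblast markers was lowest there (3311 CPM). The part of these markers in the levels of both genes was not tested. Without WT MEC library 3, the adjusted p of Ndufa4l2 was 0.102, and without each of the 4 WT libraries in turn that of Cox4i2 was between 0.0595 and 0.138.

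mt-Co2 had 8.50 and 6.82 CPM in WT MECs and 41.2 and 16.9 CPM in WT macrophages (log2 fold change 1.92, SE 0.50, adjusted p = 0.0170, edgeR), and mt-Co3 had 14.2 and 16.2 CPM against 72.9 and 25.2 CPM (log2 fold change 1.69, SE 0.51, adjusted p = 0.0317). Both calls rested on WT macrophage library 4, without which the log2 fold changes were 1.18 and 0.77 with adjusted p of 0.110 and 0.256, and both were also lost without either WT MEC library. mt-Atp6 had 58.3 and 44.0 CPM against 181 and 78.9 CPM (log2 fold change 1.35, SE 0.48, adjusted p = 0.0611 by edgeR's quasi-likelihood test, 0.0236 by the likelihood ratio test and 0.0186 by DESeq2). The other 7 mitochondrial members had log2 fold changes between -0.73 and -0.09, and none was called by the quasi-likelihood test. The nearest was mt-Nd5, with 1342 and 1096 CPM in WT MECs and 797 and 672 CPM in WT macrophages (adjusted p = 0.0674), which was called lower by the likelihood ratio test (0.0476) and DESeq2 (0.0242).

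Tissue-restricted forms of complex IV subunits gave few counts. Cox6b2, the testis form of subunit 6b, had 5.18 and 2.48 CPM in WT MECs and 0.903 and 0.190 CPM in WT macrophages (log2 fold change -2.80, SE 0.82, adjusted p = 0.0294). Cox7a1, the heart and muscle form of subunit 7a, had 1.74 and 0.853 CPM against 0.201 and 0.238 CPM (log2 fold change -2.53, SE 0.84, adjusted p = 0.0481). The Cox7a1 call was lost without any 1 of the 10 libraries and that of Cox6b2 without either WT MEC library or WT macrophage library 5. Cox6a2 and Cox8b, muscle and brown fat forms, stood at 0 to 0.360 CPM and 0 to 0.300 CPM in all libraries. Summed skeletal muscle markers were 13.8 to 19.2 CPM in MECs and 32.1 to 96.6 CPM in macrophages, and brown adipocyte markers 37.9 to 45.5 CPM and 19.6 to 36.4 CPM.

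The difference between cell types moved with the length of the mRNA. The 89 nuclear members tested have a median mRNA length of 780 nt, against 2826 nt for the other protein-coding genes tested. Among members, the WT log2 fold change rose with length (Spearman's rho across genes 0.68 for 89 members), and it did so less among other protein-coding genes (rho 0.13 for 14381 genes). These points share the same libraries and genes are not independent replicates, so no p is given. Members of up to 600 nt had a median of -1.58, and 26 of 27 were called lower. Other protein-coding genes of up to 600 nt had a median of -0.92, with 40.7% called lower.

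Restricting both sets to genes with a mean level of at least 30 CPM brought the medians close up to 600 nt. From 600 to 2000 nt the medians of members stayed below those of other genes, by amounts that varied between ranges. Up to 600 nt, the median was -1.52 for 18 members, all called lower, and -1.64 for 70 other genes, of which 49 were called lower. Between 600 and 800 nt it was -0.88 for 15 members and -0.51 for 142 other genes, and between 800 and 1000 nt -1.37 for 6 members and -0.31 for 169 other genes. From 1000 to 1500 nt the medians were -0.72 for 13 members and -0.22 for 581 other genes, and from 1500 to 2000 nt -0.34 for 9 members and -0.19 for 773 other genes. From 2000 to 3000 nt the medians were -0.34 for 4 members, none called lower, and -0.09 for 1437 other genes. The difference between members and other genes was not tested, and neither was the part of mRNA length in the lower levels.

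**Figure D4:**
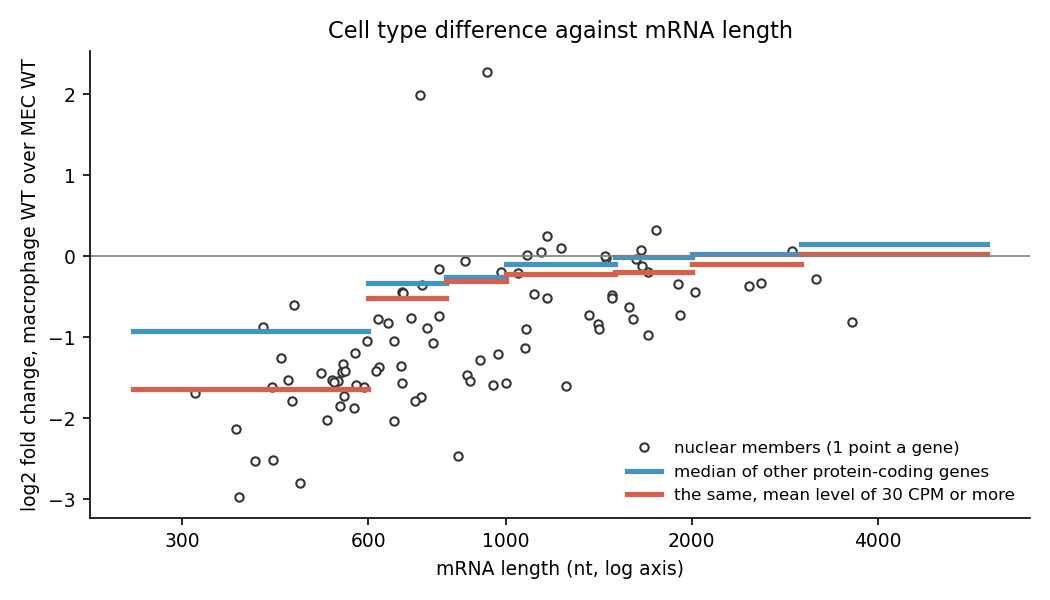
WT log2 fold change, macrophage over MEC (y axis), against mRNA length (x axis, nt, log axis), 1 open point for each of the 89 nuclear members tested, with the median of other protein-coding genes in 7 ranges of length (blue) and of those with a mean of 30 CPM or more (red). Members of up to 600 nt have a median of -1.58, and other genes of that length one of -0.92, or -1.64 at 30 CPM or more.

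The same comparison in CebpbΔM mice used other libraries. Here 68 of 99 members were called, where 33.7% of all genes were, and 73 had an unadjusted p under 0.05, where 43.3% of all genes did. Of the 68 called, 63 were lower in macrophages, where 14.7% of all genes were, and 5 were higher, where 18.9% of all genes were. The median log2 fold change was -0.997 for nuclear members and 0.17 for mitochondrial members, and 0.10 for the 7 mitochondrial members outside the uncertain stretch. The mitochondrial median was -0.07 without CebpbΔM MEC library 1, -0.0018 without CebpbΔM macrophage library 6 and 0.56 without CebpbΔM MEC library 3. By complex, 25 of 36 members of complex I, 0 of 4 of complex II, 6 of 8 of complex III, 13 of 16 of complex IV and 16 of 17 of complex V were lower. Atp5o again had the smallest p, with a log2 fold change of -2.64 (SE 0.18). mt-Co2, mt-Co3 and mt-Atp6 were called higher (log2 fold changes 2.41, 2.52 and 1.81), as were Ndufa4l2 and Cox4i2 (1.80 and 1.91). The calls of mt-Atp6, Ndufa4l2 and Cox4i2 were lost without either CebpbΔM MEC library (adjusted p between 0.0664 and 0.122). Both comparisons share the spread estimated over all 10 libraries and the split by experiment.

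The next comparison asked whether the genes differ in MECs of mice whose macrophages carry the deletion. No member was called in MECs by edgeR's quasi-likelihood test, where 0.051% of the 15698 genes tested were (0.0446% higher and 0.00637% lower), and none had an unadjusted p under 0.05, where 5.42% of genes did. The likelihood ratio test and DESeq2 called 179 and 161 genes in all and no member. Most estimates were small and positive, with 85 of 99 members above 0, where 48.6% of all genes were, and a median log2 fold change, CebpbΔM over WT, of 0.14 for the 89 nuclear members and -0.01 for all genes. The genotypes did not overlap for 44 of 99 members, where 28.7% of all genes did not overlap. The estimates shared the same 4 libraries, and the median for nuclear members was 0.07 to 0.18 without any 1 of them. These estimates too moved with mRNA length, with a Spearman's rho of -0.49 across 89 members and -0.14 across 12929 other protein-coding genes. Up to 600 nt, members had a median of 0.19 and other genes one of 0.12. The medians were 0.16 and 0.04 between 600 and 800 nt, and 0.20 and 0.05 between 800 and 1000 nt. From 2000 to 3000 nt they were -0.02 and -0.01. The part of length in the shift was not tested.

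**Figure D5:**
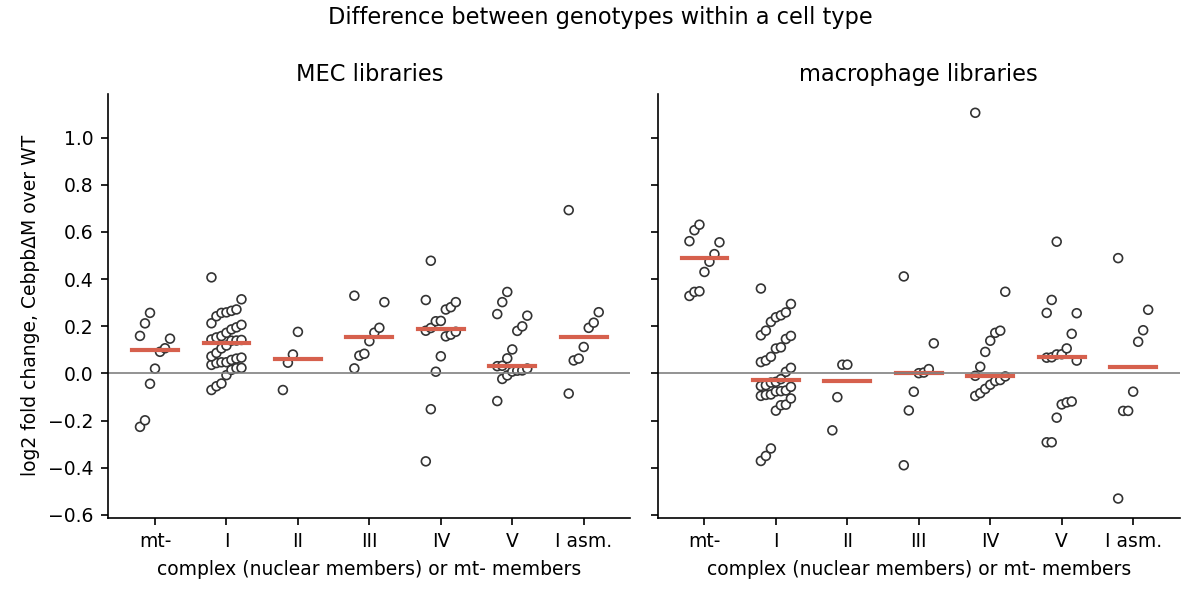
Log2 fold change of each member tested, CebpbΔM over WT (y axis), by complex, in MECs (left) and macrophages (right), with bars at medians; no member has an adjusted p of 0.05 or less. In macrophages the 10 mitochondrial points lie between 0.33 and 0.63, whereas nuclear points lie on both sides of 0.

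The smallest p in MECs was that of Ndufaf6, a complex I assembly factor, with 4.49 and 6.58 CPM in WT and 8.21 and 9.44 CPM in CebpbΔM MECs. Its log2 fold change was 0.69 (SE 0.32, adjusted p = 0.935, edgeR). Uqcr11, a small subunit of complex III, had 141 and 132 CPM in WT and 173 and 165 CPM in CebpbΔM (log2 fold change 0.33, SE 0.20), and Atp5j, coupling factor 6 of ATP synthase, had 169.5 and 176 CPM in WT and 225 and 196 CPM in CebpbΔM (log2 fold change 0.30, SE 0.20). For these 3 genes the genotypes did not overlap. Ndufa3 of complex I had 39.7 and 29.0 CPM in WT and 48.7 and 41.1 CPM in CebpbΔM. Cox5a of complex IV had 145 and 136 CPM in WT and 201 and 143 CPM in CebpbΔM, where the lower CebpbΔM library lay within the WT range by level, although the fit's own scaling kept the groups apart. Sdhb had 152 and 178 CPM in WT and 182 and 186 CPM in CebpbΔM, also with no overlap. The adjusted p of these genes other than Ndufaf6 was above 0.99.

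The mitochondrial members of MECs had a median log2 fold change of 0.10 over 10 genes, which became -0.17 without CebpbΔM library 3. CebpbΔM library 1 stood apart in mt-Co1, at 2085 CPM, against 4073 CPM in CebpbΔM library 3 and 3471 and 3732 CPM in WT. For mt-Cytb the same libraries had 3996, 4427, 3880 and 4059 CPM, and CebpbΔM library 1 lay between the others.

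In macrophages the comparison addresses the cells at which the deletion was directed. No member of 98 was called by edgeR, and neither was any of the 17772 genes tested (0%). The unadjusted p was under 0.05 for 1 member and for 8.63% of all genes. The likelihood ratio test called 138 genes and DESeq2 201, with no member among them. The 10 mitochondrial members tested were all estimated higher in CebpbΔM macrophages, with log2 fold changes of 0.33 to 0.63 and a median of 0.49, and 0.43 for the 7 outside the uncertain stretch. Nuclear members were split, with 46 of 88 above 0 and a median of 0.01, where 50.4% of all genes were above 0.

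On the scaling of the macrophage fit, each mitochondrial member tested overlapped between the genotypes, although on the scaling over all 10 libraries used for the levels given here mt-Co1 did not, by a narrow margin. mt-Nd1 had 2794 and 2015 CPM in WT and 3867, 2523, 4735 and 3267 CPM in CebpbΔM macrophages 4 to 7 (log2 fold change 0.56, SE 0.26, adjusted p = 0.597, edgeR). mt-Co1 had 2378 and 2181 CPM in WT and 3041, 2391, 4447 and 3300.1 CPM in CebpbΔM (log2 fold change 0.51, SE 0.23, adjusted p = 0.597), and mt-Nd4 had 974 and 861 CPM against 1352, 903, 1742 and 1193 CPM (log2 fold change 0.47, SE 0.25, adjusted p = 0.641). CebpbΔM library 6 was the highest for each of these and library 5 the nearest to WT. The mitochondrial median stayed between 0.31 and 0.62 without any 1 library. It was 0.23 with the replicate number as a block.

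Macrophage markers moved the same way as the mitochondrial genes. Their sum was 9049 and 10542 CPM in WT and 11927, 14249, 16234 and 17436 CPM in CebpbΔM macrophages, with all 16 genes estimated higher (median log2 fold change 0.57), 9 of 16 with an unadjusted p under 0.05 and none called. Summed epithelial markers were 10438 and 10091 CPM in WT and 8088, 6132, 5796 and 6850 CPM in CebpbΔM. The mean log2 level of these markers overlapped, unlike their sum, at 6.56 and 6.04 in WT and 7.60, 6.70, 6.12 and 5.52 in CebpbΔM. With this mean level as a covariate, the mitochondrial median was 0.50, and no member was called. The covariate does not follow the lower sum and so cannot account for it. Summed skeletal muscle markers were 46.1 and 32.1 CPM in WT and 82.3, 49.6, 96.6 and 70.6 CPM in CebpbΔM. All 11 skeletal muscle genes tested were estimated higher (median log2 fold change 0.98), as were all 6 lymphocyte genes (median 0.79), with none called. Of 7 brown adipocyte genes, 5 were estimated higher and 2 lower (median 0.90), 3 with an unadjusted p under 0.05 (edgeR) and none called. Their sums overlapped, at 19.6 and 34.5 CPM in WT and 36.4, 28.8, 25.5 and 34.5 CPM in CebpbΔM. Of 8 fibroblast genes, 7 were estimated lower (median -0.27). The part of the summed epithelial markers, and of the macrophage, muscle, lymphocyte, brown adipocyte and fibroblast markers, was not tested.

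Among nuclear members in macrophages, Uqcrc1 had the smallest p. It had 547 and 536 CPM in WT and 446, 424, 382 and 431 CPM in CebpbΔM macrophages, with no overlap (log2 fold change -0.39, SE 0.14, adjusted p = 0.521, edgeR). Ndufv1, the flavoprotein of complex I that binds NADH, had 197 and 153 CPM in WT and 141, 154, 134 and 143 CPM in CebpbΔM (log2 fold change -0.32, SE 0.16, adjusted p = 0.630). Cox7a2l, a factor that joins complexes III and IV into supercomplexes, went the other way, with 97.5 and 92.5 CPM in WT and 120.2, 145, 101 and 125 CPM in CebpbΔM (log2 fold change 0.35, SE 0.18, adjusted p = 0.645).

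Sdha had 368 and 398 CPM in WT macrophages and 348, 301, 319 and 351 CPM in CebpbΔM macrophages (log2 fold change -0.24, SE 0.15). Ndufaf5, a complex I assembly factor, had 8.18 and 4.86 CPM in WT and 4.79, 4.72, 4.02 and 4.81 CPM in CebpbΔM, and Atp5j had 66.3 and 50.2 CPM against 66.0, 76.3, 69.5 and 82.2 CPM. Of 88 nuclear members tested, 7 did not overlap between the genotypes, where 18.7% of all genes did not. The WT libraries themselves differed. Without WT library 4 the nuclear median was 0.26, and without WT library 5 it was -0.18.

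The difference between the genotype effects of both cell types was tested as an interaction. No member of 99 and no gene of 18323 (0%) was called by edgeR's quasi-likelihood test, and no member had an unadjusted p under 0.05, where 5.19% of genes did. The likelihood ratio test called 53 genes and DESeq2 27, with no member among them. The estimate, macrophage effect minus MEC effect, was above 0 for all 10 mitochondrial members (median 0.45), where 53.6% of all genes were, and below 0 for 55 of 89 nuclear members (median -0.07, against 0.04 for all genes). The mitochondrial median was 0.24 without WT macrophage library 5 and 0.66 without CebpbΔM MEC library 3. The smallest p was that of Cox7a2l, which was lower in CebpbΔM MECs (199 and 216 CPM in WT, 188 and 180 CPM in CebpbΔM) and, as given above, higher in CebpbΔM macrophages, neither past the threshold (interaction 0.54, SE 0.26, adjusted p = 0.965, edgeR).

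Genes that act with the complexes were followed as lists. Of 55 assembly and partner factors tested, 10 were lower in WT macrophages than in WT MECs and 1 was higher (median log2 fold change -0.09), where 10.7% of all genes were lower and 14.8% higher. Usmg5, another small ATP synthase subunit, was the lowest of these, with 38.4 and 34.0 CPM in WT MECs and 8.03 and 7.24 CPM in WT macrophages (log2 fold change -2.25, SE 0.29). Atpif1, the inhibitor of ATP synthase hydrolysis, had 222 and 226 CPM against 84.7 and 50.1 CPM (log2 fold change -1.73, SE 0.27). Cycs, cytochrome c, had 95.7 and 123 CPM against 69.6 and 54.8 CPM (log2 fold change -0.81, SE 0.20), and Tmem126b, a complex I assembly factor, was the 1 higher gene (log2 fold change 0.87, SE 0.29). These genes were picked from the called ones after their values were seen.

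Genes for the upkeep and expression of mitochondrial DNA gave 3 lower and 1 higher of 29 tested (median -0.02), Twnk, Tfb2m and Slirp being lower and Polg2, the accessory subunit of the mitochondrial DNA polymerase, higher, with 11.8 and 18.5 CPM in WT MECs and 49.9 and 68.7 CPM in WT macrophages. Regulators of respiratory genes gave 2 lower of 14, Esrrg and Gabpb1, the latter a subunit of GABP. Of 18 citrate cycle genes 4 were lower, and of 20 glycolysis genes 3 were lower and 1, Hk3, a hexokinase of myeloid cells, was higher. With counts this small, the lower calls among mitochondrial DNA genes and regulators lay near the share over all genes (10.7%). Their higher calls lay below the share over all genes (14.8%). No gene of these 5 lists was called in either genotype comparison or in the interaction.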

How the data were processed

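RNA-seq libraries were sequenced as 150 bp paired ends after a low-input Smart-Seq preparation. The authors trimmed reads, aligned them to GRCm38 with HISAT2 and deposited whole-number counts per Ensembl release 100 gene from featureCounts (both ends mapped, mapping quality of at least 10, reverse-stranded). Whether the kit keeps strand is not given in the sources used here. If it does not, reads of genes that overlap on opposite strands, such as mt-Nd5 and mt-Nd6, cannot be told apart and part of the reads of every gene would go uncounted. From these deposited counts, genes under 300 nt or without over 1 CPM in at least 2 libraries were removed. TMM factors and the quasi-likelihood test of edgeR 4.0.16 in R 4.3.3 were used, and p-values were adjusted across the whole table by the Benjamini-Hochberg method (calls at 0.05 or less). MECs and macrophages were fitted apart for genotype, and all 10 libraries together for cell type and interaction. DESeq2 1.42.0 was an alternative. CPM are scaled by TMM, and lengths are those of 1 GENCODE M21 transcript a gene. Copies were found with BLAST 2.17.0 (e-value 1e-10), and figures and summaries were made in Python 3.11.15. The fits were tested on simulated data.

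Members and lists were chosen with earlier results of these data known. The genes named are Cebpb, the called members of each comparison other than cell type in CebpbΔM mice, or the 5 with the smallest p in each direction where over 10 were called, the nuclear member of each complex with the smallest p in each genotype comparison, the mitochondrial members, the highest member per kb of each complex and the tissue-restricted isoforms. Same-numbered MEC libraries correlated in their deviations from group means at r = 0.0998, and macrophage libraries at 0.173 (number 4) and -0.101 (number 5). With 2 WT libraries a cell type, deviations from their mean mirror each other, so these values cannot decide whether numbers pair libraries. The main fits did not pair them, and fits with the replicate number as a block are given below. No 2 libraries of a group were alike within sampling noise (chi-square per degree of freedom 30.5 to 60.5). The counts held no MEC library numbered 2, and all 10 count columns were used.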

Additional observations from a re-analysis of the deposited data

Results flagged for a closer look

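In the 4 CebpbΔM macrophage libraries, 4 of 49 values tested had 1 library far from the others by Dixon's criterion, which chance gives for about 1 in 20. The summed level of complex I assembly factor genes was 83.7 CPM in library 6, with the nearest library at 97.9 CPM. Ndufaf5 was 4.02 CPM in library 6, with the nearest at 4.72 CPM. Ndufa7 was 82.3 CPM in library 7, with the nearest at 55.7 CPM, and Atp5e was 24.5 CPM in library 7, with the nearest at 17.2 CPM.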

How the results depend on the processing

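No member was called in either genotype comparison or the interaction under any alternative run: without each library, by the likelihood ratio test or DESeq2, with other size factors, scaling without the mitochondrial chromosome, other filters, the epithelial covariate or replicates 4 and 5 only. Members called between WT cell types numbered 60, 38 to 59 without 1 library and 59 to 66 otherwise, and in CebpbΔM 68, 50 to 69 and 66 to 73. Without 1 library the nuclear median ran from -0.18 to 0.26 for genotype in macrophages and from -0.32 to 0.13 for the interaction, and the mitochondrial median from -0.17 to 0.21 for genotype in MECs. The mitochondrial to nuclear ratio taken as a difference of median log2 CPM, another scale, was 2.70 in WT MECs, 2.61 in CebpbΔM MECs, 3.48 in WT macrophages and 3.83 in CebpbΔM macrophages. With the replicate block, 0 members were called in MECs (205 of all genes), 0 in macrophages (12) and 0 in the interaction (1), with mitochondrial medians of 0.07, 0.23 and 0.17. The block could not be fitted for the cell type comparisons, whose numbers are nested in cell type. Medians without mt-Co2 to mt-Nd4l were chosen after seeing the data. With 2 libraries in 3 of the 4 groups, many differences could go uncalled. In simulated counts with few changed genes, the quasi-likelihood test called only part of the genes changed by a log2 fold change of 1. These were 18.8% for genotype in MECs, 12.9% for genotype in macrophages, 6.38% for cell type in WT and 1.03% for the interaction. At a log2 fold change of 2 it called 87.4%, 65.6%, 54% and 28.3% in the same order.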
